A study of Mus musculus with 249 samples.

Results

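Chromosome 8 of mouse embryonic stem cells was examined window by window in a multiplex genome architecture mapping (GAM) collection. Its members were all 40 kb windows of chromosome 8 that begin at or after 3 Mb in the mm9 assembly, which gave 3219 of the 68162 windows listed for the genome. The windows of the other 18 autosomes, 57172 in number, served as the comparison. The data comprised 249 sequencing libraries of 46C cells, a line of strain 129/Ola that carries a green fluorescent protein reporter at Sox1. All cells grew in serum medium with leukaemia inhibitory factor and spent their last day in serum-free medium. Each library pooled the DNA of nuclear slices (profiles) cut from thin cryosections by laser, 4 per tube by the labels, and each window was scored as positive or negative in each library. The study itself counts fewer profiles per library on average.

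The libraries came from 11 experiments that varied how slices were stained, stored, lysed or amplified. The full collection held 54 libraries, all stained with cresyl violet. Reagent volumes were varied in protocol A with 10 libraries, protocol B with 11 and protocol C with 10. Proteinase K was added at 1 µl (5) or 2 µl (6) by title, although the protocol text gives smaller volumes. Freezing was tested after incubation (10 frozen, 11 unfrozen) and at an early or late time (12 and 11). Amplification ran for 25 (3), 23 (5) or 20 (4) PCR cycles, and small (12) and large (11) kits were compared. Cresyl violet staining was compared with unstained sections (16 and 10 libraries). The propidium iodide (20 libraries), eosin (18) and SYBR Gold (10) tests had 1 arm each, and that arm is titled unstained in all of them. The protocol text of the propidium iodide and eosin tests names no stain, whereas that of the SYBR Gold test describes staining. All libraries came from 1 cell line, and no karyotype is given. The study describes them as a single biological replicate. The p-values below therefore measure the spread between libraries of that material, not between cultures.

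Gain of chromosome 8 is a recurrent change of mouse embryonic stem cells in culture. Trisomic cells tend to outgrow their diploid neighbours, and they contribute poorly to the germ line after injection into embryos. In GAM, a thin slice of a nucleus carries a random sample of the genome, so a chromosome present in more copies is hit by more slices. Regions that lie close together in the nucleus tend to be caught in the same slice, and this co-segregation is expressed as D′, a normalized linkage that reaches 1 when the rarer window is never seen without the commoner one.

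A few stretches of the reference are shown for windows whose detection was unusual. The first pair was chosen for a run of sequence that is identical between them, and it comes from a group of very often detected windows near 19.7 Mb and from a second group near 72.0 Mb, which lie 51.92 Mb apart from the last start of one to the first start of the other. The longest run of identical sequence between both groups spanned 416 bases. Shown are the last 120 bases of that run and the 120 bases that follow, read in the same direction, and capitals mark the 3 bases of 240 that differ.
First group, chr8:19683581-19683820, plus strand: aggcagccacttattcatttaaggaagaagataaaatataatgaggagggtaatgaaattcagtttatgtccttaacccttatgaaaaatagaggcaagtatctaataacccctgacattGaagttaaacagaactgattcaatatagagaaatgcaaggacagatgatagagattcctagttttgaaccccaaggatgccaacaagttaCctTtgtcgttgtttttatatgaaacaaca
Second group, chr8:72098533-72098772, minus strand: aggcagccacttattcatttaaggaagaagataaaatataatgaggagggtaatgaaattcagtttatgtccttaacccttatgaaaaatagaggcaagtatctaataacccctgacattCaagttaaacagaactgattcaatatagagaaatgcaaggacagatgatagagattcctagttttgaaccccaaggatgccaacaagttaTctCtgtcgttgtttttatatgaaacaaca
The last stretch is the centre of the only window on chromosome 8 that has no unknown base in the reference and yet was never positive. It overlaps no annotated protein-coding gene.
Never positive window, chr8:15459926-15460075, plus strand: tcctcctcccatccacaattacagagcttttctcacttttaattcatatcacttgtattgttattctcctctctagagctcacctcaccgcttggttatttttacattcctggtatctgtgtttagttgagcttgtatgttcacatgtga

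Chromosome 8 was not detected more often than the other autosomes. On average 18.995% ± 13.0 (SD, n = 249 libraries) of its windows were positive, against 19.9% ± 8.41 of the windows on the other autosomes. In single libraries the chromosome 8 value ran from 0.155% to 76.9% with a median of 17.6%, and the value for the other autosomes from 3.48% to 49.5% with a median of 18.7%. The ranges overlapped. Single autosomes all had a wider spread than this pool, with SDs from 11.7 to 14.3. The mean difference was -0.890 ± 0.700 percentage points (SE), chromosome 8 was the higher of both in 108 of 249 libraries, and a sign-flip permutation test over libraries gave p = 0.202 (two-sided, adjusted p = 0.386 over 21 chromosomes). The median difference over libraries was -2.48 points, and without the full collection the mean was -1.55 points (permutation, unadjusted p = 0.0440, adjusted p = 0.154). On a log2 ratio with 0.5 percent added the mean was -0.43 and was called (permutation, adjusted p = 2.1e-05), where all 19 autosomes lay below 0 and chromosome 8 ranked 18 of 19 from the top. Of those 21 chromosomes 28.6% were called in either direction, both sex chromosomes among them, and 9.52% were called higher. Chromosome 8 ranked 16 of the 19 autosomes, between chromosome 10 (19.02%) and chromosome 1 (18.8%).

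The measurement lay below what 3 copies would give. If the chance of missing a window is the same for every copy, the chance of missing all of 3 copies is the observed chance for 2 copies raised to the power 1.5. On that model 27.99% of chromosome 8 windows should be positive, and observed minus predicted was -8.998 ± 0.743 percentage points (SE). The difference was negative in 200 of 249 libraries, and the sign-flip p was 1e-05, the smallest that 100000 resamples can give. A mean of 2.5 copies, as in a culture where every other cell is trisomic, predicts 24.1%, and observed minus predicted was then -5.08 ± 0.718 points, negative in 172 of 249 libraries, also with p = 1e-05. Expressed as copies, with the other autosomes set to 2, chromosome 8 had 1.90 ± 0.0728 (SE from libraries drawn with replacement, 95% interval 1.76 to 2.04). The X chromosome, which is present once in male cells, gave 0.963 (0.860 to 1.06) on the same scale, but the Y chromosome, also present once, gave 0.235 (0.206 to 0.265). The autosomes themselves ranged from 1.71 for chromosome 14 to 2.32 for chromosome 11, a wider range than the interval of chromosome 8. Copy number, mappability and amplification bias cannot be told apart in this measure.

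**Figure D1:**
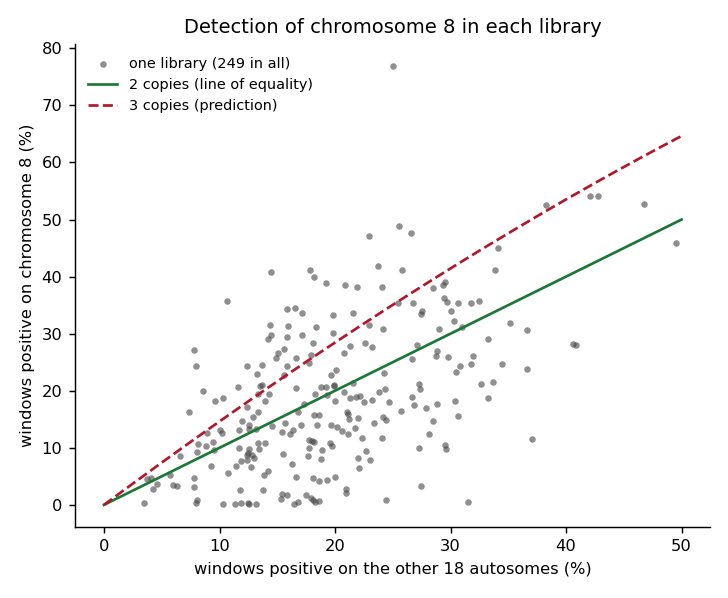
Each point is 1 of 249 libraries, with the percent of positive windows on the other 18 autosomes on the x axis and on chromosome 8 on the y axis; the solid line is equality (2 copies) and the dashed curve is the prediction for 3 copies. Points scatter around the line of equality with a mean of 18.995% on chromosome 8, and 200 of 249 lie below the dashed curve.

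No difference between experiments was detected. Values per experiment are shown in the plot by experiment. An F statistic over the 11 experiments was 1.11, and permuting the experiment labels gave p = 0.353 (adjusted p = 0.571), against 9.52% of chromosomes called in the same comparison. Mean differences ran from -6.60 ± 2.70 points (SE) in the SYBR Gold test to 2.47 ± 2.30 points in the eosin test. In the SYBR Gold test the 10 libraries lay between -17.4 and 9.72 points with a median of -6.32, and 2 of them were above 0. That test alone had an exact sign-flip p under the unadjusted threshold (p = 0.0391), which did not pass after adjustment over experiments (adjusted p = 0.389). In the full collection, the experiment with the most libraries, chromosome 8 was 1.498 ± 1.63 points higher, with libraries from -19.1 to 26.3 points and a median of -1.69. The groups overlapped throughout.

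The mean lay below the 3-copy prediction in each of the 11 experiments. Observed minus predicted ranged from -5.03 points in the eosin test to -14.2 points in the SYBR Gold test. The difference passed the exact or resampled sign-flip test in 9 experiments after adjustment, and missed it in the proteinase K volumes (-5.13 points, adjusted p = 0.0732, n = 11, exact) and in the eosin test (adjusted p = 0.0631, n = 18, permutation). Apparent copies ran from 1.21 (95% interval 0.695 to 1.73) in the SYBR Gold test to 2.32 (1.74 to 2.90) in the eosin test. The upper bound of the interval was below 3 in all 11 experiments, the closest being the eosin test and the proteinase K volumes (2.88).

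**Figure D2:**
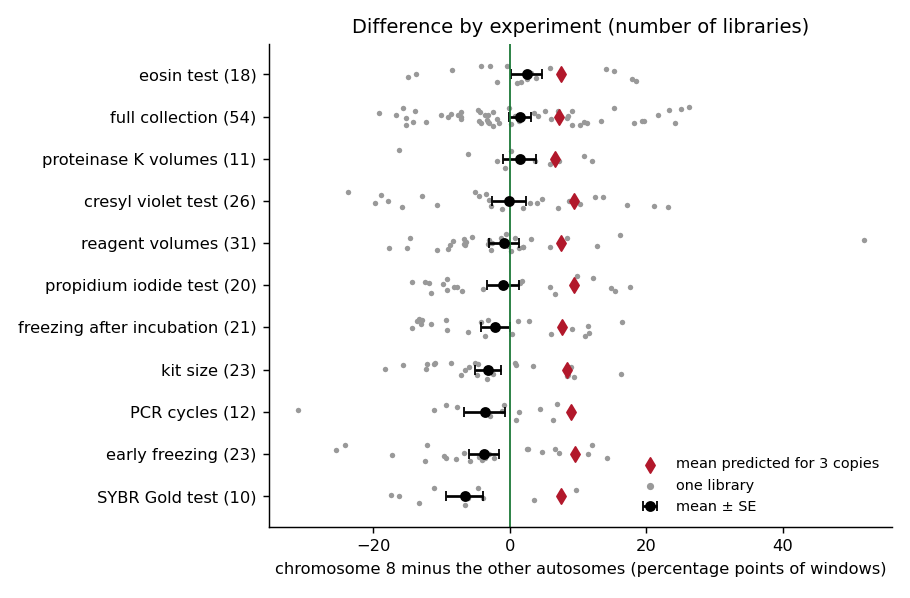
For each experiment (number of libraries in parentheses) grey points give chromosome 8 minus the other autosomes in single libraries, in percentage points of windows, black points the mean with its SE, and red diamonds the mean difference predicted for 3 copies. The black means lie between -6.60 and 2.47, and each diamond lies to the right of its mean.

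None of the 11 contrasts between arms of 1 experiment passed after adjustment. The lowest p was that of the PCR cycles. With 23 cycles the chromosome 8 differences were 0.834, -1.18, 1.36, 6.36 and 4.47 points, and with 20 cycles they were -9.29, -11.2, -2.86 and -0.908 points. The lowest value with 23 cycles lay just under the highest with 20 cycles. The difference of means was 8.43 points (exact permutation p = 0.0159, adjusted p = 0.175 over 11 contrasts, permutation). With 25 cycles the 3 libraries were at -7.73, -31.1 and 6.85 points, which spans both other arms. Protocol C exceeded protocol A by 11.1 points (permutation p = 0.0407, adjusted p = 0.224), a value that included 1 library far above the rest. Without that library, replicate 9 of protocol C, it was 5.89 points (exact permutation p = 0.0817, adjusted p = 0.449), an alternative chosen after seeing the data, and the difference of medians over all libraries was 5.68 points. The other contrasts lay between -13.02 points (25 minus 23 cycles) and 6.001 points (protocol C minus protocol B). Both ends of that range rested on single libraries. The first was -2.81 points without replicate 2 of 25 cycles, and the second was 0.775 points without replicate 9 of protocol C.

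In single libraries nearly the whole chromosome could be present or absent. In replicate 9 of protocol C, 76.9% of chromosome 8 windows were positive while the other autosomes reached 25.0%. Its positive windows covered the chromosome from end to end, with 24.0% positive in the first segment and between 61.6% and 96.8% in the other 12. Every other autosome of that library stayed within -19.7 and 19.3 points of the rest. Among the 4731 pairs of a library and an autosome, this difference of 51.9 points ranked 2 from the top, and 7 pairs, 1 of them on chromosome 8, exceeded 40 points. At the other end, replicate 2 of the 25-cycle arm had 14 positive windows of 3219 on chromosome 8 (0.435%) beside 31.5% on the other autosomes. Leaving both libraries out moved the mean difference to -0.982 ± 0.662 points (permutation p = 0.140), a setting added after the values were seen.

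The number of libraries that missed the chromosome did not differ detectably from that of other autosomes. Under 2% of chromosome 8 was positive in 21 of 249 libraries (8.43%), against a mean of 6.31% for the other autosomes (permutation p = 0.232, adjusted p = 0.593). No autosome was called in this comparison (0.0%). The spread of the difference across libraries, an SD of 11.1 points, ranked 7 of 19 and lay inside the range of the other autosomes (9.86 to 12.4). Positive windows fell into runs of 2.81 windows on average, compared with 3.02 for the other autosomes pooled, a difference of -0.210 ± 0.0532 windows (permutation, adjusted p = 0.000169). The same comparison called 78.9% of autosomes, each with shorter runs than the pool, so this value does not set chromosome 8 apart.

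Chromosome 8 was compared with each other autosome in turn. It was detected less often than chromosome 11, with a difference of -3.43 ± 0.987 points (SE, permutation, adjusted p = 0.0104 over 18 pairs), and less often than chromosome 9, with -2.62 ± 0.930 points (adjusted p = 0.0498). The other 16 differences did not pass, and they ran from -2.20 points against chromosome 18 to 1.63 points against chromosome 14. With windows seen in under 25 libraries left out, the differences from chromosomes 11 and 9 did not pass. Both chromosomes were themselves called higher than the other autosomes pooled, by 2.72 and 1.88 points (permutation, adjusted p = 0.00115 and 0.0157). Pairs without chromosome 8 were not compared. More of chromosome 8 was never positive, 2.95% of windows against 1.15% on the other autosomes.

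Along the chromosome, 2 of the 13 segments of about 10 Mb differed from the other autosomes, both downwards. Over all autosomes 14.5% of 248 segments were called, 6.45% higher and 8.06% lower. Between 50 and 60 Mb, 13.2% of windows were positive, a difference of -6.70 ± 0.879 points (SE) from the other autosomes with a value above 0 in 64 of 249 libraries (permutation, adjusted p = 0.00165). This segment has the lowest GC content of the chromosome (37.6%), 22 protein-coding gene starts, and 16.4% of windows that were never positive. Between 20 and 30 Mb, the segment had 15.3% positive windows and differed by -4.57 ± 0.954 points (adjusted p = 0.00165). No library detected 20.0% of the windows there. The distal end, from 120 Mb on, stood highest at 2.38 ± 1.08 points (adjusted p = 0.116), and the segments 80 to 90 Mb (1.59) and 110 to 120 Mb (1.33) were also above 0 without passing. From the centromere-proximal end the remaining means were -1.77, 0.0870, -0.880 and -1.36 points for segments 1, 2, 4 and 5, -2.28 and -0.189 for segments 7 and 8, and 0.00508 and -0.0720 for segments 10 and 11. None of the 13 segments was called higher.

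Both differences became smaller when rarely seen windows were left out. They also did when GC content was matched and windows of mostly unknown bases were left out. With windows seen in at least 25 libraries only, the 20 to 30 Mb segment moved to -0.0456 points and was no longer called, whereas the 50 to 60 Mb segment still was (-4.47 points, permutation, adjusted p = 0.00992). Against windows of equal GC content on the other autosomes neither passed (-1.27 and -2.29 points, adjusted p = 0.679 and 0.290, permutation). Windows of mostly unknown bases were also left out there, so GC content and the gaps cannot be told apart in it. The distal segment, with the highest GC content of the chromosome (47.7%), moved to 0.512 points in that comparison and was no longer the highest, since the 80 to 90 Mb segment stood at 0.918 points. None of the 13 segments differed across experiments, against 0.806% of all segments; at an unadjusted p under 0.05 there were 0 as well, against 22 of all 248.

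**Figure D3:**
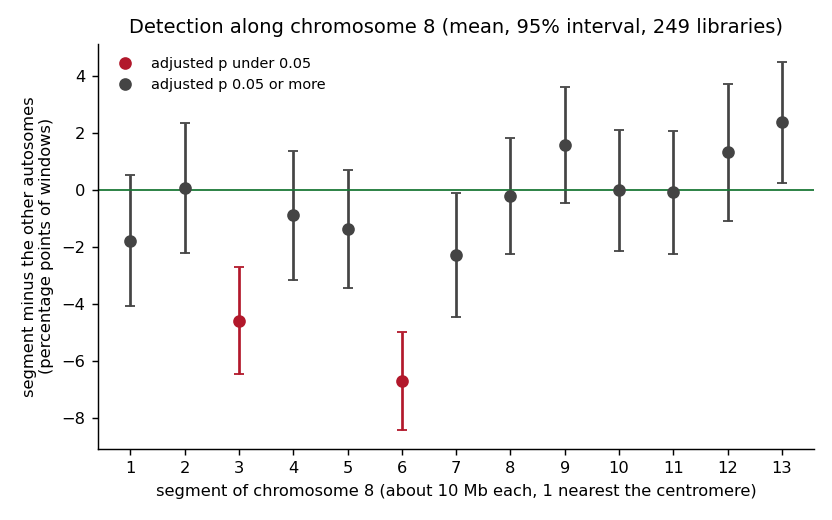
Mean difference in the percent of positive windows between each of 13 chromosome 8 segments and the other autosomes over 249 libraries, with 95% intervals, numbered from the centromere. Segments 3 and 6 (red, -4.57 and -6.70 points) lie below 0 with adjusted p = 0.00165, and no segment lies above 0 with an adjusted p under the threshold.

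A typical window of chromosome 8 was positive in 48 of 249 libraries (quartiles 41 and 55), compared with a median of 50 on the other autosomes. Detection rose with GC content: windows under 38% GC had a median of 41 libraries and windows at or over 46% a median of 56 (r = 0.452, Spearman rho = 0.573 over 3127 windows with known bases, which share libraries and are not independent). It also rose with gene content, from a median of 47 libraries in the 2385 windows with no protein-coding gene start to 58.5 in the 24 windows with 4 or more. Without the full collection the correlation with GC was 0.465.

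Counts far from the median were found where sequence is repeated in the reference. To measure repetition, 31-base words were taken every 160 bases and counted on both strands of the whole reference. It holds 211 sequences, more than the 21 chromosomes tested here. In the 2359 windows where over 80% of words were unique, counts stayed between 26 and 79 libraries. In the 38 windows with 20% unique words or fewer, they ran from 0 to 169, with 12 windows under 10 libraries and 9 windows at 80 or more. Of the 15 windows with known bases under 10 libraries, 12 belonged to this class, and so did 9 of the 12 windows at or above 80. Not all windows with few unique words were extreme. At Tsnax and the start of Disc1, a gene first found at a translocation breakpoint, 4 neighbouring windows held at most 0.4% unique words. Their words had a median of 2 copies, and the windows were positive in 62, 58, 53 and 57 libraries. Whether the second copy lies on a chromosome or in another sequence of the reference was not examined.

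The longest run without a positive window spanned 49 windows, chr8:20040001-22000000, and its bases are all unknown in mm9. A second such run of 41 windows lay at chr8:56240001-57880000. Of the 95 windows that were never positive, 92 had no known base. The exception with complete sequence, chr8:15440001-15480000, had 79.6% unique words, and its neighbours were positive in 35 and 49 libraries. A count of 0 of 249 allows a rate of up to 1.20%, taken as 3 counts of the total, and the Wilson 95% upper bound is 1.52%.

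**Figure D4:**
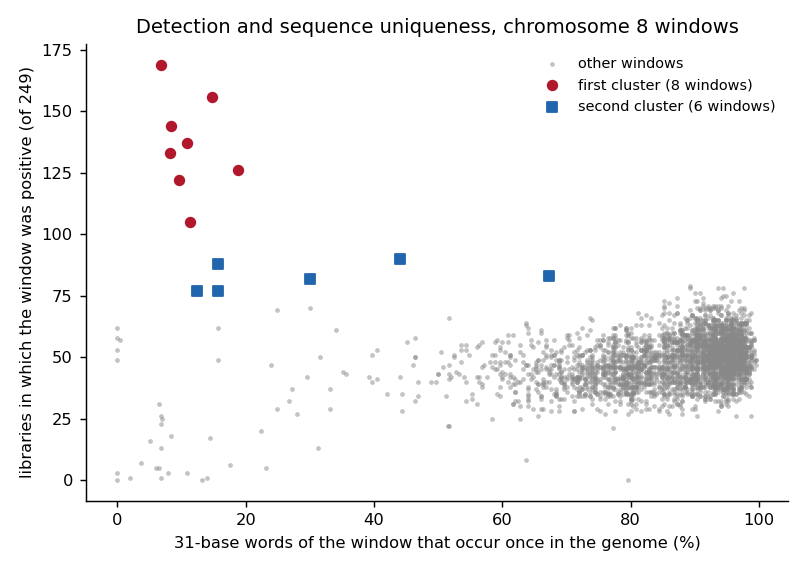
Each point is a chromosome 8 window with known bases, with the percent of its 31-base words that occur once in the genome on the x axis and the number of libraries (of 249) in which it was positive on the y axis. Windows over 80% unique stay between 26 and 79 libraries, and the first (red) and second (blue squares) groups of often detected windows reach 169 and 90.

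The most often detected windows stood together beside the gap at 20 Mb. The leading 3, by the rule used here, were chr8:19920001-19960000 with 169 libraries (67.9%, Wilson 95% interval 61.8 to 73.4), chr8:19960001-20000000 with 156 (62.7%) and chr8:19720001-19760000 with 144 (57.8%). The first overlaps an exon of the gene model Gm15319 and the third an exon of 4930467E23Rik, while the other overlaps no protein-coding gene. In all, 8 windows of this group reached 100 libraries (105 to 169, median 135), while the 5 windows before it were at 39 to 46. Another window inside the group, positive in 16 libraries, was not counted with it. Such counts were not unique to chromosome 8: 70 of the 57172 windows on other autosomes reached 100 libraries, the highest being 249. A second group of 6 windows, chr8:71920001-72160000, had 77 to 90 libraries and overlaps exons of Gm7697 and the zinc finger gene Zfp868.

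Scaled as copies, the first group gave 7.67 ± 0.620 (SE) and the 5 windows before it 1.69 ± 0.202. The second group gave 3.73 ± 0.303 and its flanks 2.23 ± 0.245. The first group exceeded its flank in 163 libraries and fell below it in 14, with a mean of 37.6 ± 2.46 points (SE). The second exceeded its flanks in 112 libraries and fell below them in 61, by 11.4 ± 2.00 points. By experiment, the first group was positive in 23.8% of window-library pairs in the SYBR Gold test, in 40% in the propidium iodide test and in 71.5% in the eosin test, and it exceeded its flank in each of the 11 experiments. Both groups were picked after their counts were seen, so their levels are a description.

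Both groups tended to be positive in the same libraries. Over 48 pairs of a window from each group, the correlation of detection across libraries (phi) averaged 0.415, from 0.282 to 0.603. The flanks of the groups had a mean phi of 0.04999 with each other, and the first group had 0.115 with the flanks of the second and 0.313 with its own flank. When each window of the first group was compared with 61259 windows of the genome more than 5 Mb away, the highest phi fell in the second group for 8 of 8 windows. For the second group the highest phi fell in the first for 5 of 6 windows. Unequal counts cap phi, so between 1775 and 38078 of the compared windows could have exceeded the highest value of a window in the first group, whereas 48961 or more could have done so for each window of the second. The mean phi between groups was 0.440 in the full collection and 0.407 in the other 195 libraries. The groups share sequence: 32.4% of the different 31-base words of the second group occur in the first. Of the words in the flanking windows before the second group, 1.34% occur in the first, and the windows after it were not compared. Whether the shared sequence bears on the joint detection was not tested, and reads from copies that mm9 places in either group, or in the gap, cannot be told apart.

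At the low end of the windows seen in at least 25 libraries, 3 were tied at 25 (10.0%, Wilson 95% interval 6.89 to 14.4). They were chr8:19360001-19400000, chr8:43920001-43960000 and chr8:56200001-56240000, none of which overlaps a protein-coding gene. Their unique words made up 62.8%, 58.4% and 7.02%, and the last one has 77.3% unknown bases.

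Genes with a role in pluripotency and the early embryo lay in windows above the median of all windows, as did most gene starts of the chromosome. The starts of all 6 listed genes were positive in more libraries than the chromosome 8 median of 48, with a list median of 64 libraries beside 55 over all 1082 protein-coding gene starts, of which 846 lay above 48 and 213 below. Cdh1, which encodes E-cadherin, the adhesion molecule of stem cell colonies, was positive in 76 libraries. Sall1, a zinc finger factor of the pluripotency network, reached 73, and Ctcf, whose protein anchors chromatin loops, reached 70. Klf2 (58), a factor that sustains the naive state, Smad1 (53), a transducer of bone morphogenetic protein signals, and Zfp42 (51), also known as the marker Rex1, were closer to the typical window. The Wilson 95% intervals of the extremes, 25.1 to 36.5% for Cdh1 and 15.9 to 25.9% for Zfp42, overlapped slightly.

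Developmental regulators and long genes were found on both sides of the median of all windows. Of 14 listed regulators, 13 were found in the annotation, 9 above and 4 below 48 libraries, with a median of 51, under the 55 of all gene starts. Nfix, a factor of muscle and brain development, had 70 libraries, Klf1, the master regulator of red cell genes, 64, and Junb, a member of the AP-1 family, 62. Hand2 (41), a heart and limb factor, Irx3 (42) of the Iroquois group and Vegfc (40), the growth factor of lymph vessels, were at the low end. The cadherins had a median of 50 over 8 genes, from 45 for Cdh11 to 76 for Cdh1. The 13 long genes had a median of 50, between 40 for Csmd1 and 61 for Nrp1, the neuropilin receptor gene. Csmd1, the longest of them at 1.64 Mb, had a median of 38 libraries over its 42 windows, and Pard3, a polarity gene, 57 over 15 windows.

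The genes of defensins, small antimicrobial peptides, were spread widely. Over the 33 annotated alpha and beta defensin genes the median was 47 libraries, 15 above and 18 below 48, where all gene starts had a median of 55 with 846 above and 213 below. Several of these genes start in the same window and share its count, so these are counts of genes and not of separate windows. The alpha defensin genes Defa21 and Defa23, which share a window, and Defa22 lay in windows positive in 1 library. The window of Defa20 was positive in 5 libraries, and the window that Defa3 and Defa5 share in 18. These windows had between 6.80% and 23.2% unique words. Windows with similarly few unique words were also detected more often, at Defa17 (31 libraries, 6.4%), Defa26 (26, 6.80%) and Defa25 (29, 24.8%). Defa24 lay in a window with 66.8% unique words and 54 libraries. The beta defensin genes lay in windows with 43 to 59 libraries, such as Defb1 (53) and Defb38 (59), and with 52.4% unique words or more.

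Linkage on chromosome 8 decayed with distance, and no difference from the other autosomes was detected. Neighbouring windows had a mean D′ of 0.624 ± 0.00856 (SE from redrawn libraries), compared with 0.626 on the other autosomes. Mean D′ was 0.514 at 0.08 to 0.2 Mb, 0.385 at 0.24 to 1 Mb, 0.241 above 1 and up to 4 Mb, 0.170 up to 10 Mb, 0.137 up to 40 Mb and 0.0893 over 40 Mb. Chromosome 8 minus the mean of the other autosomes lay between -0.00158 and 0.0108 in the 7 distance classes. The 95% intervals all held 0; the widest departure, above 4 and up to 10 Mb, had an interval of -0.0198 to 0.0414. Over all autosomes and classes 3.01% of intervals left out 0. Chromosome 8 ranked 4 of 19 in both classes between 1 and 10 Mb and 13 of 19 between neighbours.

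With other chromosomes, windows of chromosome 8 had a mean D′ of 0.00819 ± 0.0119 (SE). The mean moved to 0.0141 with windows in at least 40 libraries, to 0.00531 without the full collection and to 0.00216 without libraries with coverage below 5%, each by less than 1 SE. The other autosomes, each with all its partners including chromosome 8, averaged 0.0176 ± 0.00906. The difference was -0.00941 (95% interval -0.0223 to 0.00348), and chromosome 8 ranked 17 of 19. By partner the mean ran from -0.0155 with chromosome 12 to 0.0282 with chromosome 4, each within 2 SE of 0. The normalization makes D′ of independent windows negative on average, by an amount not measured for these libraries. The level of independent windows is therefore not 0, and a mean near 0 does not show independence.

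**Figure D5:**
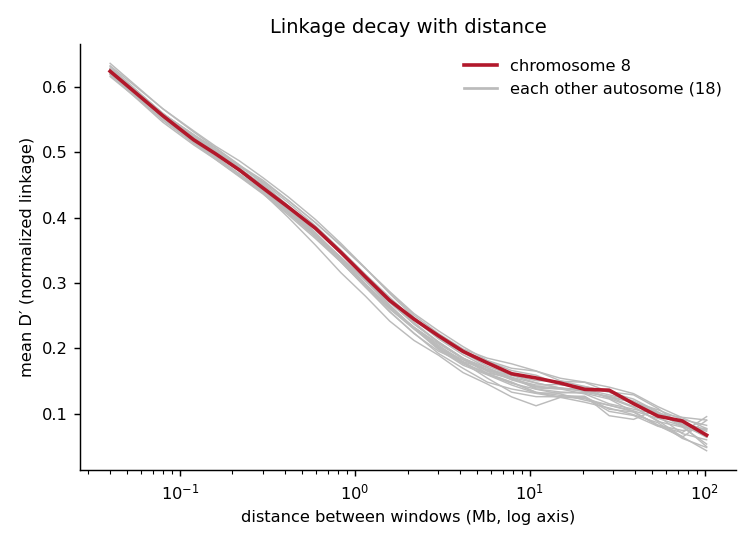
Mean D′ between windows of 1 chromosome (y axis) against their distance in Mb (x axis, log scale) for chromosome 8 (red) and each of the other 18 autosomes (grey), over windows positive in at least 25 of 249 libraries. The red curve falls from 0.624 between neighbours and stays inside the grey curves.

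The insulation score, the mean D′ across a 400 kb square that slides along the diagonal, marked 121 boundaries on chromosome 8. That is 9.84 per 10 Mb, next to the lowest density of the other autosomes (9.80 to 11.6, median 10.8). The 118 blocks between them that no gap interrupts had a median size of 0.92 Mb (0.2 to 2.16) and a median internal D′ of 0.475. The most prominent boundary, at chr8:87440001-87480000, overlaps Dnase2a, Mast1 and Rtbdn, which encode a nuclease, a kinase and a retina protein. It recurred in 91% of 100 redraws of the libraries and was found both in the full collection and in the other libraries. The next 4 were at chr8:42600001-42640000 (no protein-coding gene, 55% of redraws), chr8:101840001-101880000 (Cdh8, 39%), chr8:126040001-126080000 (Gas8 and Gm20388, 38%) and chr8:17520001-17560000 (Csmd1, 72%). None of these 4 was found both in the full collection and in the other libraries, and the one at chr8:42600001-42640000 was found in neither.

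Most boundaries changed with the choice of libraries. Only 7 of 121 recurred in 80% or more of the redraws, the median was 49%, and 61 recurred in under 50%. The full collection alone gave 145 boundaries and the other 195 libraries 120. Of these, 26 met within 1 window, which is 17.9% of the first list and 21.7% of the second; 11.7% and 14.2% of all scored windows lay that close to a boundary of the other list. The scores themselves correlated with r = 0.234 over 3073 windows. A protein-coding gene start lay within 1 window of 64 boundaries (52.9%), compared with 43.4% of scored windows.

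The 5 leading long-range pairs all ended in the often detected windows near 19.9 Mb. By z-score against pairs at equal distance, the leading pair joined chr8:16360001-16400000, inside Csmd1, with chr8:19960001-20000000 at 3.6 Mb. The Csmd1 window was positive in 42 libraries and each of them was also positive for its partner, which gives D′ at its ceiling of 1 (z = 8.43) where chance would give 26.3 shared libraries. The other 4 pairs joined chr8:19920001-19960000 with windows at Nek3 and Nek5, at AY761185, at Csmd1 and at Slc20a2, with D′ between 0.931 and 1. A window positive in 169 of 249 libraries reaches high D′ easily, so the pairs were also ranked without windows of 100 or more libraries, a setting chosen after the values were seen. The leading pair was then chr8:49880001-49920000 with chr8:52480001-52520000, where no protein-coding gene lies, with 23 shared libraries against 7.35 given by chance (D′ = 0.691 ± 0.101, SE, z = 5.08). Over 284229 pairs at 200 kb to 4 Mb, z-scores of the full collection and the other libraries correlated with r = 0.0524, and 2.01% were above 1 in both, with 11.0% above 1 in the first set and 15.0% in the second.

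At 1 Mb resolution, 123 bins were correlated with each other by their distance-corrected linkage. The first component of that correlation matrix took up 40.8% of the variance of the matrix, which is not a share of the linkage map itself. It fell into 20 runs of one sign along the chromosome, was related to position (r = -0.634) and hardly to GC content (r = 0.0482), and it is not called a compartment here. The 62 bins on one side held 10.6 gene starts per Mb and the 61 on the other 6.28. Between the full collection and the other libraries its absolute correlation was 0.212.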

How the data were processed

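Thin cryosections of mouse embryonic stem cells were microdissected, and the pooled profiles of each tube were amplified and sequenced as 1 library. Reads were aligned to mm9 with Bowtie2 2.1 per the submitters' processing notes. The authors removed PCR duplicates and called a 40 kb window positive at a fixed threshold of 4 reads, and only libraries that passed their quality control are in the deposited table. Its values are other than counts: each is a deposited call of 1 (positive) or 0 per window and library. No read counts are used here, so the sequencing depth is unknown and a fixed read threshold can make detection depend on depth, mappability and amplification. Per library, positive windows made up 3.40% to 45.2% of the genome (mean 18.2% ± 7.69, SD). Columns of samples not used numbered 0.

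Libraries were grouped by title into 11 experiments and 20 groups. Libraries served as replicates. Differences in the percent of positive windows were tested by two-sided sign-flip permutation over libraries (100000 resamples, 10000 for segments and for F statistics, exact where fewer arrangements exist), and arms by permutation of libraries. P-values were adjusted by Benjamini-Hochberg at a threshold of 0.05. D′ was computed over windows positive in at least 25 libraries, with SE from 100 sets of libraries drawn with replacement. Boundaries were minima of the insulation score with a prominence of at least 0.5 SD. Intervals on shares of libraries are Wilson 95% intervals, and they and the limit for a count of 0 cover counting error only. Words of 31 bases were matched to all 211 sequences of the reference in the mm9 build, and the printed stretches were read from it. Gene models were those of the mouse annotation of the same build. The windows named are the 3 most and 3 least often detected among those in at least 25 libraries, the longest run never positive, the 5 most prominent boundaries and the 5 pairs of highest z-score that exceeded 1 in both the full collection and the other libraries. The never positive window, the Disc1 windows and both groups of often detected windows were added after their values were seen. The members and gene lists were chosen with earlier results of these data known. Alternatives covered the window filter, GC matching, segment and square size, medians, a log2 ratio and left-out libraries or experiments. GC matching also left out windows of mostly unknown bases. Python 3.11.15, NumPy 2.4.6, SciPy 1.17.1 and numba 0.67.0 were used, and the scripts were tested on simulated data.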

Additional observations from a re-analysis of the deposited data

Results flagged for a closer look

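In the protocol C arm of the reagent volume experiment, replicate 9 stood apart from the other 9 libraries of its arm. Its difference between chromosome 8 and the other autosomes was 51.9 percentage points, while the rest lay between -9.02 and 8.39 points. The gap to the nearest library was 0.714 of the range of the arm, above Dixon's 95% critical value of 0.466 for 10 libraries. This was 1 of 9 groups tested, and chance flags about 1 in 20 groups.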

How the results depend on the processing

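Of 213 alternative values for 52 results, 183 kept their direction and their side of the threshold or stayed within the set range, 17 reversed, 9 moved, 3 weakened and 1 strengthened. Detection of chromosome 8 minus the other autosomes stayed between -2.48 and -0.416 points over 19 alternatives (permutation, adjusted p 0.154 to 0.779 over 21 chromosomes in the planned settings with a test, unadjusted p 0.140 and 0.151 in the 2 added after seeing the data). Without the full collection it was -1.55 points (adjusted p = 0.154, unadjusted p = 0.0440). The 3-copy difference stayed between -9.91 and -8.56, and apparent copies between 1.83 and 1.94. On a log2 ratio with 0.5 percent added the difference was -0.43 (permutation, adjusted p = 2.1e-05), but all 19 autosomes were then below 0, from -0.57 to -0.10, and 94.7% were called. With windows in at least 25 libraries, 0 autosomes differed from chromosome 8. The number of segments called was 1 with that filter, 4 at 5 Mb and 0 with GC-matched windows. With that filter, GC matching and without the full collection, segment 2 moved to -0.171, -0.913 and -0.836 and segment 10 to -0.319, -1.10 and -0.436; with GC matching segment 11 moved to 0.346 and segment 12 to -0.0176. The difference of medians after freezing was -0.684. Leaving out single libraries gave 6.72 to 10.1 points for 23 minus 20 PCR cycles, -13.3 to 5.62 for 25 minus 20 (5.62 without replicate 2 of 25 cycles), -21.8 to -2.81 for 25 minus 23 and 0.509 to 7.56 for proteinase K. The number of boundaries was 266 with a square of 200 kb and 60 with a larger one, and 182 and 80 at a prominence of 0.25 and 1 SD. With windows in at least 40 libraries, without the full collection and as log2 co-segregation, the linkage difference was 0.000393, 0.000363 and 0.0372 at 0.04 Mb and 0.00356, 0.00130 and 0.0361 at 0.08 to 0.2 Mb; over 40 Mb it was -0.00144 without the full collection. All 28 linkage intervals under these alternatives held 0. The z-score of the leading pair was 5.08 without windows of 100 or more libraries. The cause of these changes was not tested. No paired analysis was possible because replicate numbers were given in accession order and pair no libraries. The unknown depth limits what low detection can show.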
